A study of Mus musculus with 12 samples.

Results

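The CC chemokines are small secreted proteins named for an adjacent pair of cysteines near their amino end, and 9 of their genes are described here in RAW264.7 macrophages, an established mouse line of the BALB/c strain. The genes are Ccl2, Ccl3, Ccl4, Ccl5, Ccl6, Ccl7, Ccl9, Ccl12 and Ccl22. They were taken by symbol from the 38215 genes of the count table, with earlier results of these data known. All 9 passed the filter on low counts, which kept 14983 genes for testing.

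Chemokines bind receptors coupled to G proteins on leukocytes and draw those cells along a gradient. Ccl2, Ccl7 and Ccl12 act through the receptor CCR2, which brings monocytes out of the bone marrow and into inflamed tissue. Ccl3, Ccl4 and Ccl5 attract monocytes and activated T cells, and CCR1 is a receptor for Ccl3 and Ccl5. Ccl6 and Ccl9 are rodent ligands of CCR1, and Ccl22 attracts T cells that carry CCR4. Macrophages that sense lipopolysaccharide (LPS), a component of the outer membrane of Gram-negative bacteria, through TLR4 are a well-known source of several of these proteins. The signal reaches chemokine genes through NF-κB and by way of interferon β.

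Cells were nucleofected with control (nontargeting) siRNA or with siRNA against SF3a1, a subunit of the SF3a splicing complex that works with the U2 snRNP at the branch site of introns. After 24 hours each was exposed or not to 20 ng/ml LPS for 4 hours. Each of the 2 siRNAs was thus read in the absence and in the presence of LPS, in 4 groups of 3 RNAseq libraries. All libraries came from this 1 cell line, and the cells of all 4 groups had been nucleofected with an siRNA. In bulk RNA of this kind a change in how many cells make a transcript and a change in how much each cell makes cannot be told apart.

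Gene counts per library ranged from 12746019 to 41091887. Replicate 1 of each group was sequenced in 2 runs and was the deepest of its group. Levels are given as CPM, a gene's counts relative to the TMM-scaled total of the library, differences as log2 fold changes with standard errors (SE), and a gene is said to have risen or fallen when edgeR's quasi-likelihood test gave a Benjamini-Hochberg adjusted p of at most 0.1 over all 14983 genes. SF3a1 siRNA without LPS replicate 1 stood apart from the others in that 27.2% of its reads were assigned to no gene. The share was 20.8 and 21.6% in the rest of its group and 17.75 to 19.83% in the 6 control libraries. These shares do not tell reads in introns from reads between genes. That library was also the highest of its group for Ccl2, Ccl3, Ccl4, Ccl6, Ccl7 and Ccl9 and the lowest for Ccl5 and Ccl22. The part of that library in the results was not tested beyond the values given without it.

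Of the 9 genes, 8 lie on chromosome 11 of mm10 in 2 groups (GENCODE vM21). Ccl2 (chr11:82035571-82037453), Ccl7 (chr11:82045712-82047525) and Ccl12 (chr11:82101845-82103400) lie on the plus strand. In the other group Ccl5 (chr11:83525778-83530518), Ccl9 (chr11:83572919-83578636), Ccl6 (chr11:83587882-83593087) and Ccl3 (chr11:83647844-83649355) lie on the minus strand and Ccl4 (chr11:83662584-83664683) on the plus strand. Ccl22 lies alone on chr8:94745590-94751699, plus strand. Genes that arose by duplication, such as Ccl2, Ccl7 and Ccl12 or Ccl6 and Ccl9, can share read sequences, so the split of reads between them is less certain. Ccl6 overlaps E230016K23Rik, which held 180 counts over the 12 libraries, and Ccl2 overlaps Gm17268, which held 0.

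RefSeq promoter windows (GRCm38.p6, 250 bases before to 50 after the start) were matched for 5 of the 9 genes, Ccl3, Ccl6, Ccl9, Ccl12 and Ccl22. They are shown for the gene that LPS raised most on the log scale in control cells (Ccl22), for the one with the highest level per length after LPS (Ccl3) and for the one with the highest level per length at rest (Ccl9). Each run is 120 bases that end just before the RefSeq or the GENCODE start, whichever lies further upstream (GENCODE for Ccl22, RefSeq for Ccl3, and the same base for Ccl9), and capitals mark motif matches.
Ccl22, chr8:94745470-94745589, plus strand: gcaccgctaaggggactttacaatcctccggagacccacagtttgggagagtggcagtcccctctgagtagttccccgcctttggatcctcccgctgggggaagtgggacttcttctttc
Ccl3, chr11:83649379-83649498, minus strand: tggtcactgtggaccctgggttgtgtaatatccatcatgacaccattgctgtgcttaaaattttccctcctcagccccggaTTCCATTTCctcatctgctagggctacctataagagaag
Ccl9, chr11:83578637-83578756, minus strand: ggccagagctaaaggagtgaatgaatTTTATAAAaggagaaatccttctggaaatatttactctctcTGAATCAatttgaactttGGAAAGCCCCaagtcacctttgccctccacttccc
The letters searched, on both strands of the 300-base windows, were the NF-κB site, the IRF core GAAANNGAA, the AP-1 site TGANTCA, the C/EBP core TTGCNNAA and the TATA box TATAAA. In Ccl9 the window held 1 NF-κB site, from -35 to -26 of the RefSeq start, and 1 AP-1 site, from -53 to -47, which matches the searched letters on both strands. It also held TATA letters on both strands that overlap each other between -94 and -87, and again from -224 to -219. In Ccl3 it held the IRF core from -39 to -31, and in Ccl12 the TATA letters from -31 to -26. These letters were in neither the Ccl6 nor the Ccl22 window. Of all 32851 windows, 8.46% held the NF-κB site, 8.56% the IRF core, 7.81% the AP-1 site, 10.8% the C/EBP core and 13.6% the TATA letters.

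The target of the siRNA was read first. Sf3a1 stood at 173, 216 and 185 CPM with control siRNA and 27.1, 27.5 and 32.1 CPM with SF3a1 siRNA in the absence of LPS. In its presence the values were 150, 194 and 157 CPM against 30.3, 26.7 and 45.0 CPM. The groups did not overlap, and Sf3a1 fell by 2.73 on the log2 scale without LPS (SE 0.204, edgeR adjusted p = 1.14e-05) and by 2.30 with LPS (SE 0.200, edgeR adjusted p = 1.47e-05).

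Genes that mark macrophages were abundant, with Lyz2 (lysozyme) at 6685 CPM, Csf1r (the receptor for the macrophage growth factor) at 2501 CPM and Cd14 (the co-receptor for LPS) at 1512 CPM on average over the 12 libraries. Of the 9 macrophage markers, Mertk was the exception at 0.877 CPM. T cell, B cell, fibroblast and epithelial markers were at or near 0: Cd8a had 0 counts in all libraries, and the highest average was 0.0758 CPM, for the B cell gene Cd79a. Zbtb46, a gene of dendritic cells, averaged 1.50 CPM and S100a8, a gene of neutrophils, 0.364 CPM. Summed over the 3 markers of dendritic cells, the level was 2.05 and 2.10 CPM with control siRNA without and with LPS and 1.83 and 2.30 CPM with SF3a1 siRNA. Single members moved differently: in the same order Xcr1 averaged 0.0371, 1.13, 0 and 0.303 CPM, while Zbtb46 averaged 1.76, 0.771, 1.69 and 1.78 CPM. The 4 neutrophil markers summed to 0.187, 0.442, 0.351 and 0.682 CPM, with S100a8 at 0.187, 0.363, 0.278 and 0.630 CPM. The 9 macrophage markers summed to 10406, 12991, 13415 and 14194 CPM, but single ones moved differently. Among these, Csf1r averaged 2934, 1424, 3355 and 2290 CPM and Fcgr1 64.1, 455, 49.4 and 49.4 CPM. The 3 endothelial markers summed to 0.242, 1.62, 0.314 and 0.731 CPM. Among them Cdh5 averaged 0.0960, 0.978, 0.155 and 0.0563 CPM and Pecam1 0.0807, 0.300, 0.135 and 0.659 CPM, and the part of such genes in the results was not tested.

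Without LPS, the chemokine transcripts of control cells ranged over orders of magnitude, and Ccl9 was the main one. Per kilobase of exon, Ccl9 stood at 124 ± 19.6 CPM per kb (SD, n = 3), Ccl3 at 66.5 ± 12.6, Ccl4 at 18.8 ± 5.35 and Ccl2 at 6.68 ± 1.19. Each of these 4 was separated from the next by all of its libraries. The other 5 lay below 1 CPM per kb, and the lowest, Ccl12, had 0 counts in each of the 3 libraries, which allows a level of up to 0.0335 CPM (3 counts over the group, for counting error only).

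**Figure D1:**
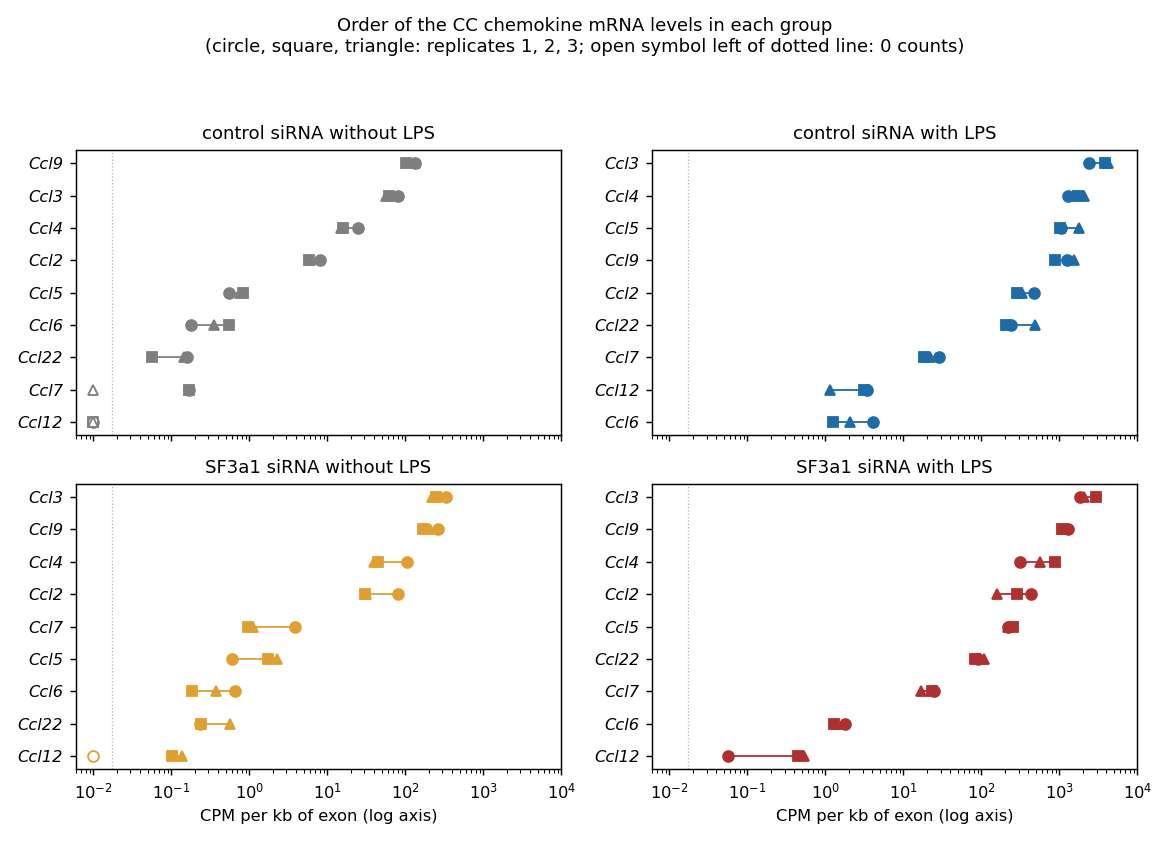
CPM per kilobase of exon (log axis) of the 9 genes in each of the 4 groups, sorted by group mean, with a symbol for each replicate, a line over the range of the libraries with counts, and open symbols for 0 counts. By group mean, Ccl9 leads in control cells at rest (124 CPM per kb), and Ccl3 leads in control cells after LPS (3478 CPM per kb) and with SF3a1 siRNA both at rest (268 CPM per kb) and after LPS (2266 CPM per kb).

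LPS raised 8 of the CC chemokine transcripts in cells with control siRNA, and Ccl12, the remaining one, passed the test as well. Ccl12 reached the filter's minimum of 0.477 CPM only in the 3 libraries of control siRNA with LPS, so that its call is not independent of the filter, while each of the other 8 reached it in at least 3 libraries without LPS. Over all 14983 genes, 13.8% rose and 18.3% fell in this comparison (2061 and 2748 genes), and with scaling to total counts alone the split was 1596 and 4187. The median log2 change of the 9 was 6.48 against -0.02 over all genes. The share of all gene counts taken by the 9 genes was 0.0533, 0.0405 and 0.0523% without LPS and 0.804, 0.826 and 1.20% with it.

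Among the CCR2 ligands, Ccl2 stood at 9.17, 6.74 and 6.89 CPM at rest and at 542, 328 and 371 CPM after LPS. The groups were far apart, and Ccl2 rose by 5.76 on the log2 scale (SE 0.488, edgeR adjusted p = 2.53e-06). Ccl7 stood at 0.137, 0.134 and 0 CPM at rest and at 23.0, 14.6 and 17.5 CPM after LPS. Its resting level rested on 6, 3 and 0 counts, and the log2 change was 7.48 (SE 0.655, edgeR adjusted p = 3.35e-06). Ccl12 remained rare: after LPS it had 70, 21 and 11 counts (1.84, 1.67 and 0.617 CPM). Set against 3 counts over the resting group, this was at least 41.0-fold higher (edgeR adjusted p = 0.000586).

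Of Ccl3, Ccl4 and Ccl5, the first and second were present at rest and Ccl5 hardly so. Ccl3 went from 62.0, 46.8 and 44.0 CPM to 1836, 2962 and 3194 CPM. Ccl4 went from 16.5, 10.7 and 10.0 CPM to 846, 1138 and 1355 CPM. In both, replicate 1 was the highest of the 3 at rest and the lowest of the 3 after LPS. The log2 changes were 5.71 (SE 0.307, edgeR adjusted p = 5.53e-08) and 6.48 (SE 0.510, edgeR adjusted p = 1.33e-06). Ccl5, also known as RANTES, went from 0.527, 0.804 and 0.723 CPM to 1018, 975 and 1702 CPM, a log2 change of 10.84 (SE 0.464, edgeR adjusted p = 1.14e-08).

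Ccl6 and Ccl9, both ligands of CCR1, had the smallest changes of the 9. Ccl9 stood at 410, 307 and 411 CPM at rest and 3847, 2640 and 4684 CPM after LPS, a log2 change of 3.31 (SE 0.238, edgeR adjusted p = 6.20e-07). The groups did not overlap. Ccl6 was low throughout, at 0.321, 0.982 and 0.638 CPM and then 7.36, 2.22 and 3.76 CPM, a log2 change of 2.85 (SE 0.542, edgeR adjusted p = 0.00170). Without control siRNA with LPS replicate 1, its highest library, the Ccl6 change was 2.26. Ccl22, the CCR4 ligand, had the steepest of the fitted changes against a resting group with counts: it went from 0.367, 0.134 and 0.340 CPM to 564, 478 and 1113 CPM. That was a log2 change of 11.22 (SE 0.506, edgeR adjusted p = 1.75e-08). Replicate 3 of the LPS group lay well above the other libraries.

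After LPS the order of the levels per length had changed. Ccl3 stood first at 3478 ± 948 CPM per kb (SD, n = 3), above Ccl4 (1687 ± 387), Ccl5 (1283 ± 425) and Ccl9 (1223 ± 338). By these values the libraries of the last 3 genes overlapped from each to the next. The length used for Ccl5 includes a stretch of 428 of 960 bases that is intron in another transcript and held little of its counts. The level of Ccl5 per length is thus a low estimate, and its order against Ccl4 and Ccl9 is not read. Ccl2 (364 ± 99.7 CPM per kb) and Ccl22 (309 ± 148) came next and also overlapped. Ccl7 followed at 23.0 ± 5.34 CPM per kb, and Ccl12 and Ccl6 overlapped below 5.

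**Figure D2:**
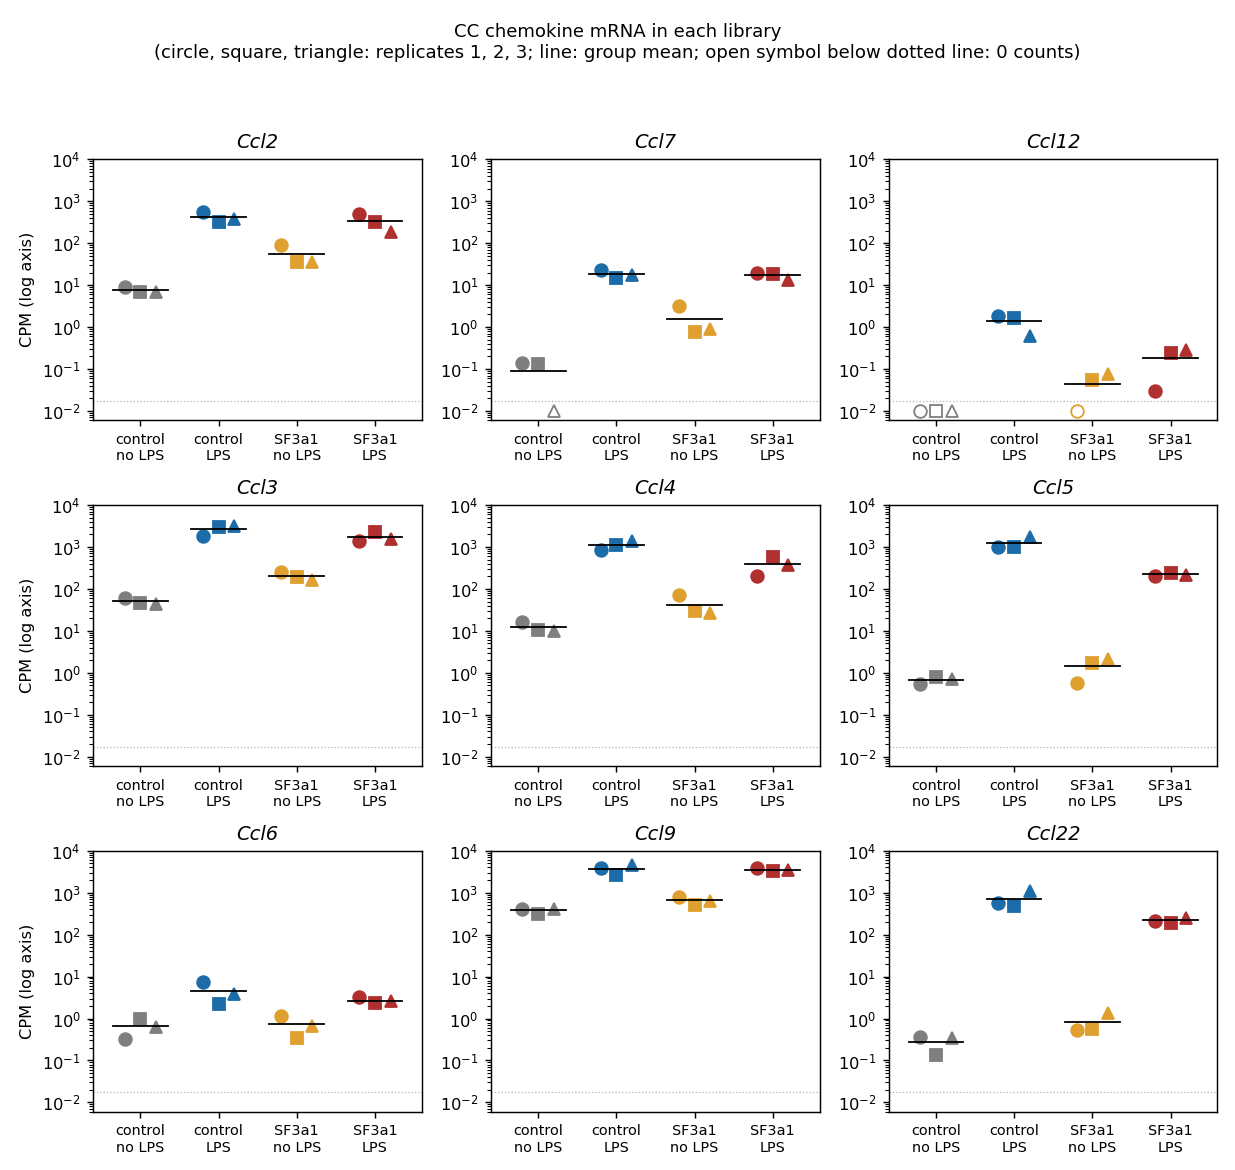
CPM (log axis) of each of the 9 genes in each of the 12 libraries, by group, with circles, squares and triangles for replicates 1, 2 and 3, a line at the group mean and open symbols below the dotted line for 0 counts. For Ccl5 the 3 libraries of control siRNA with LPS (975 to 1702 CPM) lie above those of SF3a1 siRNA with LPS (208 to 245 CPM), and for Ccl2 these 2 groups overlap.

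The next comparison asked what SF3a1 inhibition did to these genes in the absence of LPS. Of the 9, 7 rose and 0 fell, while over all genes 13.7% rose and 20.1% fell. The median log2 change of the 9 was 1.76, against -0.02 over all genes. The 9 genes took 0.122, 0.0813 and 0.0917% of gene counts with SF3a1 siRNA, against at most 0.0533% in the control libraries.

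Ccl2 and Ccl7 rose the most. Ccl2 went from the resting values above to 91.8, 34.8 and 36.0 CPM, with replicate 1 far above replicates 2 and 3 and each of these above the control libraries. Its log2 change was 2.83 (95% interval 1.90 to 3.77, edgeR adjusted p = 0.000510), or 713% of the control mean. Ccl7 stood at 3.13, 0.780 and 0.892 CPM (86, 14 and 12 counts), again with replicate 1 the highest, a log2 change of 4.03 (95% interval 2.56 to 5.50, edgeR adjusted p = 0.000955). SF3a1 siRNA without LPS replicate 1 had the largest share of reads assigned to no gene. Without that library the changes were 2.21 for Ccl2 (edgeR adjusted p = 0.00104) and 3.01 for Ccl7 (edgeR adjusted p = 0.00316). Without control siRNA without LPS replicate 1 the Ccl7 change was 4.67. Ccl12 was at 0, 1 and 1 counts against 0 in control cells, which is at the limit of these libraries (edgeR adjusted p = 0.272).

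Ccl3 stood at 259, 191 and 167 CPM with SF3a1 siRNA, each above the control libraries, a log2 change of 2.01 (95% interval 1.44 to 2.58, edgeR adjusted p = 0.000191). Ccl4 stood at 70.1, 29.6 and 26.6 CPM, a log2 change of 1.76 (95% interval 0.85 to 2.67, edgeR adjusted p = 0.00777). Both groups of libraries lay above their controls. Without SF3a1 siRNA without LPS replicate 1, the changes were 1.81 for Ccl3 and 1.18 for Ccl4 (edgeR adjusted p = 0.000664 and 0.0377). Ccl9 stood at 807, 520 and 635 CPM, a log2 change of 0.80 (95% interval 0.32 to 1.27, edgeR adjusted p = 0.0170), and was 0.62 without that library (edgeR adjusted p = 0.0728). Ccl6 was at 1.17, 0.334 and 0.669 CPM and overlapped its control libraries (log2 0.25, 95% interval -0.98 to 1.49, edgeR adjusted p = 0.798).

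Ccl5 and Ccl22 were close to the threshold and at or below 2.16 CPM in all 6 libraries. Ccl5 stood at 0.583, 1.67 and 2.16 CPM, with replicate 1 inside the control range and replicates 2 and 3 above it, a log2 change of 1.04 (SE 0.435, edgeR adjusted p = 0.0975). The call for Ccl5 was lost without replicate 1, 2 or 3 of control siRNA without LPS (edgeR adjusted p = 0.199, 0.106 and 0.126) and without replicate 2 of control siRNA with LPS (0.101). It was also lost without replicate 2 or 3 of SF3a1 siRNA without LPS (0.250 and 0.337) and without replicate 1, 2 or 3 of SF3a1 siRNA with LPS (0.111, 0.114 and 0.120). Without SF3a1 siRNA without LPS replicate 1, in contrast, the Ccl5 change was 1.51 (edgeR adjusted p = 0.00844). Ccl22 stood at 0.547, 0.557 and 1.34 CPM, each above the control libraries, a log2 change of 1.34 (SE 0.555, edgeR adjusted p = 0.0949). The call for Ccl22 was lost without replicate 2 or 3 of control siRNA without LPS (edgeR adjusted p = 0.190 and 0.122) and without replicate 2 or 3 of SF3a1 siRNA without LPS (0.102 and 0.321). The same held without replicate 1, 2 or 3 of SF3a1 siRNA with LPS (0.112, 0.114 and 0.109).

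The same question was then asked in the presence of LPS. With SF3a1 siRNA, 5 of the 9 genes fell, among them Ccl12, which was tested only because of its control libraries, 0 rose and 4 did not pass the test, while over all genes 18.4% rose and 20.4% fell. The median log2 change of the 9 was -0.75, against -0.04 over all genes. The 9 genes took 0.583, 0.667 and 0.576% of gene counts, each library below the 3 control libraries with LPS.

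Ccl5 fell the most among the abundant transcripts. It stood at 208, 245 and 213 CPM with SF3a1 siRNA, within a narrow range and far below the 975 to 1702 CPM of the control libraries. The mean was 18.0% of control (log2 -2.47, 95% interval -3.14 to -1.80, edgeR adjusted p = 0.000124). Ccl22 stood at 207, 194 and 251 CPM, each below the control libraries, with a mean of 30.3% of control (log2 -1.72, 95% interval -2.41 to -1.04, edgeR adjusted p = 0.00138). Ccl4 stood at 205, 577 and 373 CPM, with replicate 1 the lowest and each below the control libraries, and its mean was 34.6% of control (log2 -1.53, 95% interval -2.42 to -0.65, edgeR adjusted p = 0.0130). Ccl12 had 1, 4 and 6 counts against 70, 21 and 11, and its mean was 13.6% of control (log2 -2.99, SE 0.755, edgeR adjusted p = 0.0124). Without SF3a1 siRNA with LPS replicate 1 the Ccl12 change was -2.35.

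Ccl3 fell by less and near the threshold. It stood at 1384, 2251 and 1573 CPM, and replicate 2 lay within the control range of 1836 to 3194 CPM. The mean was 65.2% of control (log2 -0.62, 95% interval -1.16 to -0.07, edgeR adjusted p = 0.0813). The call for Ccl3 was lost without replicate 2 or 3 of control siRNA without LPS (edgeR adjusted p = 0.128 and 0.122) and without replicate 2 or 3 of control siRNA with LPS (0.207 and 0.247). It was also lost without replicate 2 of SF3a1 siRNA without LPS (0.103), without replicate 1 or 3 of SF3a1 siRNA with LPS (0.235 and 0.209) and with only the 2 groups compared in the fit (0.176).

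The CCR2 ligands Ccl2 and Ccl7 and the CCR1 ligands Ccl6 and Ccl9 did not pass the test with LPS. Ccl9 stood at 3918, 3312 and 3435 CPM, inside the control range, and the interval of its log2 change was -0.54 to 0.41 (edgeR adjusted p = 0.857). Ccl7 stood at 19.6, 18.8 and 13.4 CPM against 23.0, 14.6 and 17.5, and the interval was -1.02 to 0.83 (edgeR adjusted p = 0.901). Ccl2 stood at 492, 324 and 182 CPM against 542, 328 and 371, and the interval was -1.17 to 0.54 (edgeR adjusted p = 0.603). For these 3 the groups overlapped and a change of the size seen for Ccl5 lay outside the interval. The direction of 2 of them rested on single libraries: the Ccl7 change of -0.10 was 0.10 without control siRNA with LPS replicate 1 and 0.06 without SF3a1 siRNA with LPS replicate 3, and the Ccl9 change of -0.07 was 0.13 without control siRNA with LPS replicate 3. Ccl6 stood at 3.18, 2.30 and 2.55 CPM, and with an interval of -1.81 to 0.31 its change was less well determined (edgeR adjusted p = 0.280).

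**Figure D3:**
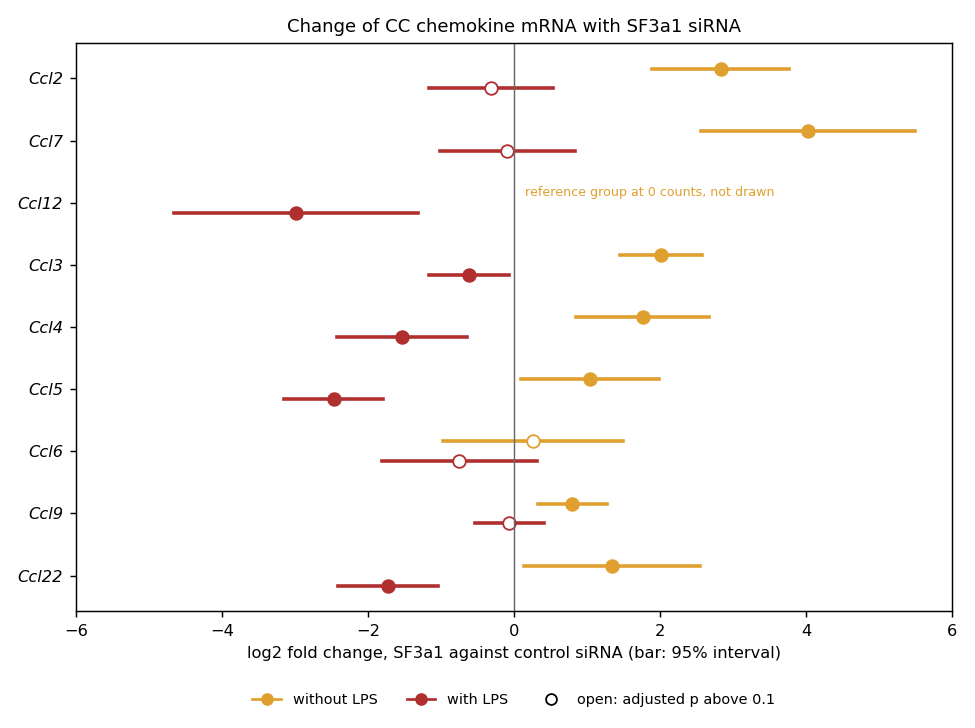
Log2 fold change of each gene with SF3a1 against control siRNA, without LPS (orange) and with LPS (red), with bars for the 95% interval and open symbols for an adjusted p above 0.1. Among the 8 genes drawn for both, the change without LPS lies to the right of the change with LPS, for instance 2.83 and -0.32 for Ccl2 and 1.04 and -2.47 for Ccl5.

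In cells with SF3a1 siRNA, LPS still raised 8 of the 9 genes and lowered 0, while over all genes 6.6% rose and 4.06% fell. The split over all genes was 989 higher and 609 lower, and 820 and 1228 with scaling to total counts alone. The median log2 change of the 9 was 3.08, against 0.01 over all genes. Ccl22 rose by 8.15 (SE 0.452, edgeR adjusted p = 3.85e-07) and Ccl5 by 7.33 (SE 0.409, edgeR adjusted p = 3.85e-07). Ccl7, Ccl4, Ccl3, Ccl2 and Ccl9 rose by 3.35, 3.19, 3.08, 2.61 and 2.44. The largest edgeR adjusted p of these 5 was 0.00159, for Ccl2. Without SF3a1 siRNA without LPS replicate 1 the rises were larger for Ccl7 (4.37), Ccl4 (3.77), Ccl2 (3.23) and Ccl6 (2.45).

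Ccl6 rose by 1.84 (SE 0.541, edgeR adjusted p = 0.0603), and this call was the least secure. It was lost without replicate 2 or 3 of SF3a1 siRNA without LPS (edgeR adjusted p = 0.206 and 0.172) and without replicate 1, 2 or 3 of SF3a1 siRNA with LPS (0.135, 0.104 and 0.109). Ccl12, at 2 counts without and 11 counts with LPS in all, did not pass (95% interval -0.51 to 4.74, edgeR adjusted p = 0.393).

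**Figure D4:**
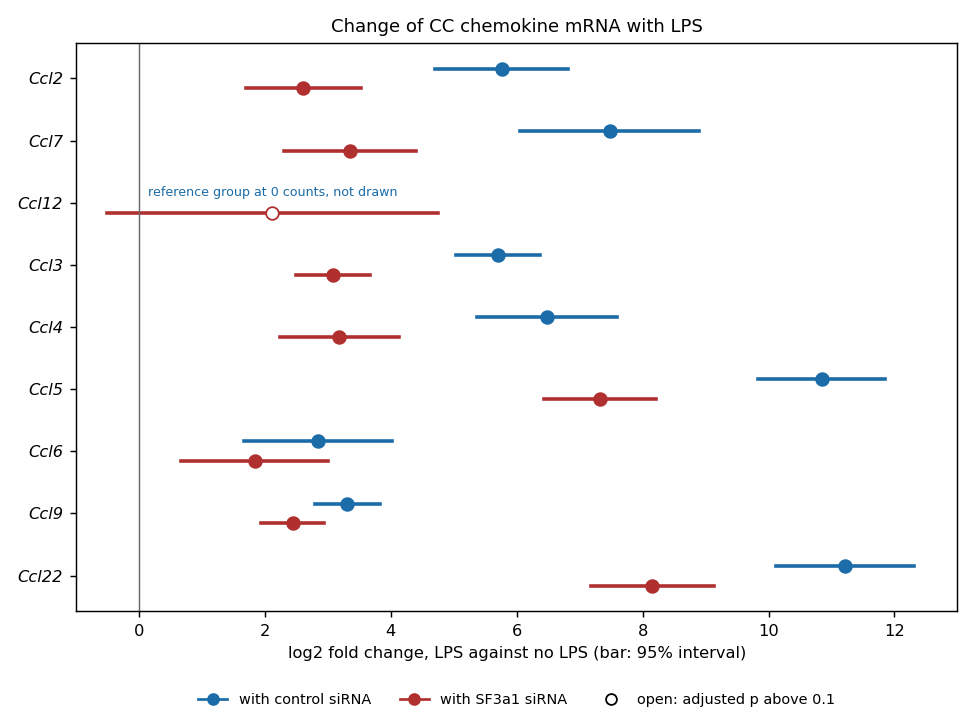
Log2 fold change of each gene with LPS against no LPS, with control siRNA (blue) and with SF3a1 siRNA (red), with bars for the 95% interval and open symbols for an adjusted p above 0.1. The intervals of the 2 siRNAs do not overlap for Ccl2, Ccl3, Ccl4, Ccl5, Ccl7 and Ccl22, and they overlap for Ccl6 and Ccl9, whose changes with LPS are the smallest with control siRNA (2.85 and 3.31).

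Whether the response to LPS differed between the siRNAs was tested as the interaction in the same fit, so it shares its libraries with the comparisons above. For 6 of the 9 genes the response was smaller with SF3a1 siRNA and for 0 it was larger, while over all genes 1.94% were lower and 1.54% higher in this sense. The median of the 9 was -3.15, against 0.04 over all genes. The differences in log2 change were -4.12 for Ccl7 (SE 0.813, edgeR adjusted p = 0.0244), -3.51 for Ccl5 (SE 0.530, edgeR adjusted p = 0.00632) and -3.30 for Ccl4 (SE 0.586, edgeR adjusted p = 0.0150). They were -3.15 for Ccl2 (SE 0.578, edgeR adjusted p = 0.0176), -3.07 for Ccl22 (SE 0.637, edgeR adjusted p = 0.0290) and -2.63 for Ccl3 (SE 0.361, edgeR adjusted p = 0.00376). These 6 were reached from different sides. For Ccl2 and Ccl7 the 2 siRNAs overlapped with LPS and were apart without it, while Ccl5 and Ccl22 lay far apart with LPS and were close to the threshold without it. Ccl3 and Ccl4 were higher with SF3a1 siRNA at rest and lower with it after LPS.

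For Ccl9 the difference of -0.86 did not pass (SE 0.309, edgeR adjusted p = 0.211). With the replicate number as a block it was -0.83 and passed (edgeR adjusted p = 0.0222), as it did without control siRNA with LPS replicate 2 (-1.06, edgeR adjusted p = 0.0987). For Ccl6 (-1.01, edgeR adjusted p = 0.694) the interval of -2.64 to 0.62 was wide. For Ccl12, at 0 counts in the control group without LPS, the edgeR adjusted p was 0.266. Without SF3a1 siRNA without LPS replicate 1, all 6 calls held. The differences were then -2.53 for Ccl2, -2.43 for Ccl3, -2.71 for Ccl4, -3.98 for Ccl5, -3.11 for Ccl7 and -3.33 for Ccl22, with edgeR adjusted p between 0.00111 for Ccl5 and 0.0406 for Ccl22. Without control siRNA without LPS replicate 1 the Ccl7 difference was -4.73.

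With SF3a1 siRNA the order per length changed as well. Without LPS, Ccl3 (268 ± 62.3 CPM per kb, SD, n = 3) and Ccl9 (215 ± 47.5) overlapped in their ranges, where Ccl9 had stood alone at the top in control cells. Within each library Ccl3 was above Ccl9, at 338 against 265, 249 against 171 and 217 against 208 CPM per kb. With LPS, Ccl3 (2266 ± 595 CPM per kb) stood first and Ccl9 (1167 ± 105) second, each apart from the next. Ccl4 (584 ± 282 CPM per kb), Ccl2 (292 ± 136) and Ccl5 (231 ± 21.0) overlapped from each to the next. The lengths of Ccl2 and Ccl5 include 325 of 1138 and 428 of 960 bases that are intron in another transcript and held little of their counts. The order of these 3 is therefore not read. Ccl22 followed at 93.6 ± 12.8 CPM per kb.

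The genes whose log2 CPM followed each member most closely over the 12 libraries were sought among 13226 tested genes, or 13227 for Ccl12. These correlations describe 12 libraries that share 4 conditions and are dominated by LPS. For Ccl2 the closest was Ccl7 (Pearson r = 0.989), and the reverse, then Mmp9 (0.985), a gelatinase. For Ccl3 it was Nfkbia (0.994), the inhibitor of NF-κB that NF-κB itself induces, then Lif (0.988), a cytokine. For Ccl4 it was Dusp2 (0.986), a phosphatase of MAP kinases, with Ccl3 second (0.984). For Ccl5 it was Ccrl2 (0.994), a chemerin-binding receptor, followed by Nos2 (0.994), the inducible nitric oxide synthase, and Ccl22 (0.993). For Ccl22 it was Il1b (0.993), the gene of interleukin-1β, then Nfkb1 (0.993). Ccl9 was closest to Col5a3 (0.992), Ccl6 to Serpinb2 (0.943) and Ccl12 to Maf (0.963), and the last pair of r values were the lowest, for the rarest members.

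Other CC ligands were nearly absent. Of 14 in the count table, 4 had 0 counts throughout and 3 passed the filter (Ccl17, Ccl24 and Ccl25). Ccl17, the other ligand of CCR4, had 0 counts in both groups without LPS and stood at 4.85 ± 4.18 CPM with control siRNA and 0.766 ± 0.611 CPM with SF3a1 siRNA after LPS (SD, n = 3). It fell with SF3a1 siRNA in the presence of LPS (log2 -2.72, edgeR adjusted p = 0.0287), and this call was lost without control siRNA with LPS replicate 3 (adjusted p = 0.117, log2 -1.72) or SF3a1 siRNA with LPS replicate 3 (adjusted p = 0.101). Without SF3a1 siRNA with LPS replicate 2 the change was -3.54. Of the 3, Ccl17 and Ccl24 rose with LPS under either siRNA. Both reached the filter's minimum only in libraries with LPS, so that this count is not independent of the filter. With only the groups compared, 1 rose under SF3a1 siRNA, and without the filter 3 rose under control siRNA. The Ccl17 call for LPS with SF3a1 siRNA was lost without SF3a1 siRNA without LPS replicate 1 (edgeR adjusted p = 0.138) or 2 (0.110) and without SF3a1 siRNA with LPS replicate 2 (0.116). With SF3a1 siRNA 0 of the 3 changed without LPS and 1 fell with it, or 1 and 2 fell with the replicate block, and 0 differed in the interaction. Over all genes 20.1 and 20.4% fell, or 26.3% in each with the block, and nothing is read from counts over 3 genes.

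Of 15 CC receptors and scavenging receptors, 6 passed the filter, and these 6 rose with LPS in control cells, where 13.8% of all genes did. Of the 6, Ccr1 and Ccr2 alone reached the filter's minimum in 3 or more libraries without LPS, so the count is given as a description of the 6 and not of the 15. Ccr1, the receptor for Ccl3, Ccl5, Ccl6 and Ccl9, stood at 0.853 ± 0.322 CPM at rest and 33.4 ± 37.2 CPM after LPS with control siRNA, and at 17.2 ± 10.4 and 53.5 ± 26.4 CPM with SF3a1 siRNA (SD, n = 3). The level after LPS in control cells rested largely on replicate 1, without which the log2 change with LPS was 3.78 instead of 5.28. Ccr1 rose with SF3a1 siRNA without LPS by 4.31 (edgeR adjusted p = 0.00235). Ccr2, the receptor for Ccl2, Ccl7 and Ccl12, rose with SF3a1 siRNA both without LPS (log2 1.49, edgeR adjusted p = 0.000594) and with it (0.79, edgeR adjusted p = 0.0181). Ccrl2 fell with SF3a1 siRNA in the presence of LPS (-1.76, edgeR adjusted p = 0.000285), and its response to LPS was smaller (-2.52, edgeR adjusted p = 0.0244). In the list, 2 rose with LPS under SF3a1 siRNA (4 with the replicate block), 3 rose with SF3a1 siRNA without LPS, 1 rose and 3 fell with it in LPS, and 1 was lower in the interaction. Over all genes 6.6% rose in the first of these comparisons, 13.7% rose in the second, 18.4% rose and 20.4% fell in the third, and 1.94% were lower in the interaction. With the block 11.3% rose with LPS under SF3a1 siRNA and 5.18% were lower in the interaction. The interaction count depended on the setting: it was 4 with the replicate block, 4 with DESeq2, 3 without the filter on low counts and 2 with total counts only.

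Of 18 genes for signalling behind chemokine receptors, 17 passed the filter. With LPS in control cells 3 rose and 3 fell (median log2 change -0.20). Rgs16, which shortens signals from G proteins, rose from 34.8 ± 6.14 to 428 ± 138 CPM, and with SF3a1 siRNA it stood at 276 ± 53.3 and 549 ± 157 CPM (SD, n = 3). It rose with SF3a1 siRNA without LPS (log2 2.99, edgeR adjusted p = 3.98e-05), and its response to LPS was smaller (-2.63, edgeR adjusted p = 0.00585). The arrestin gene Arrb2 fell with SF3a1 siRNA without LPS (-0.98, edgeR adjusted p = 0.00752) and with it (-1.02, edgeR adjusted p = 0.00546). The counts were 2 higher and 1 lower for LPS with SF3a1 siRNA (median -0.18), 3 and 1 for SF3a1 siRNA without LPS (median -0.010), 2 and 3 for it with LPS (median 0.08), and 0 and 1 for the interaction (median 0.0032). Over all genes, LPS with control siRNA raised 13.8% and lowered 18.3%, and LPS with SF3a1 siRNA 6.6 and 4.06%. The shares for SF3a1 siRNA were 13.7 and 20.1% at rest and 18.4 and 20.4% in LPS. For the interaction 1.54% were higher and 1.94% lower. Counts this small are not read as setting the list apart from all genes. With scaling to total counts alone they were 3 higher and 5 lower for LPS with control siRNA, and 2 and 4 with SF3a1 siRNA. With the replicate block they were 4 higher and 5 lower for LPS under either siRNA, 3 and 3 for SF3a1 siRNA without LPS, 3 and 4 with it, and 2 and 3 for the interaction. The block also raised the shares over all genes, to 18.8 and 25% for LPS in control cells, 11.3 and 9.48% with SF3a1 siRNA, 20.7 and 26.3% for SF3a1 siRNA at rest, 24.6 and 26.3% in LPS, and 6.54 and 5.18% for the interaction.

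All 26 genes of the route from TLR4 to NF-κB passed the filter. With LPS in control cells 16 rose and 2 fell (median log2 change 0.99), and with SF3a1 siRNA 13 rose and 1 fell (median 0.63). Over all genes LPS raised 13.8% and lowered 18.3% in control cells, and 6.6 and 4.06% with SF3a1 siRNA. With total counts only, LPS raised 15 and lowered 5 of the list in control cells, and 13 and 4 with SF3a1 siRNA. The replicate block gave 17 and 4, and 15 and 4, against 18.8 and 25%, and 11.3 and 9.48%, of all genes. Without LPS, SF3a1 siRNA raised 8 and lowered 3 (median 0.30). With LPS it raised 4 and lowered 6 (median -0.28), and the interaction was higher for 1 and lower for 3 (median -0.44). With the replicate block these were 12 and 3 without LPS, 5 and 12 with it, and 1 and 9 for the interaction, for which DESeq2 gave 1 and 6. Without the filter on low counts, 5 rose and 3 fell with SF3a1 siRNA at rest and 1 rose and 7 fell in LPS, and with only the groups compared 2 rose and 3 fell in LPS. The shares over all genes were 13.7 and 20.1% at rest, 18.4 and 20.4% in LPS and 1.54 and 1.94% for the interaction, and the counts with SF3a1 siRNA in LPS were near them. With the block they were 20.7 and 26.3%, 24.6 and 26.3%, and 6.54 and 5.18%. Nfkbiz, a nuclear co-factor of NF-κB, stood at 6.86 ± 0.928 and 249 ± 32.1 CPM with control siRNA without and with LPS, and at 16.3 ± 0.998 and 60.7 ± 11.5 CPM with SF3a1 siRNA (SD, n = 3). It rose with SF3a1 siRNA without LPS (log2 1.25, edgeR adjusted p = 0.000306) and fell with it in LPS (-2.04, edgeR adjusted p = 1.26e-05). Nfkbia rose without LPS (1.07, edgeR adjusted p = 0.00122) and stood at -0.14 with it (edgeR adjusted p = 0.611). Ikbkb, the kinase that frees NF-κB, fell in LPS (-0.99, edgeR adjusted p = 0.000246).

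The 15 genes of the interferon route all passed the filter, Ifnb1 only through libraries with LPS. With SF3a1 siRNA, 8 fell and 1 rose without LPS (median log2 change -0.48), and 10 fell and 2 rose with LPS (median -1.73). More genes fell than rose over the whole table too, at 20.1 against 13.7% without LPS and 20.4 against 18.4% with it. Without SF3a1 siRNA without LPS replicate 1, the number that changed in either direction was 6 in the absence of LPS and 12 in its presence. LPS raised 10 and lowered 1 in control cells (median 1.08) and raised 7 and lowered 0 with SF3a1 siRNA (median 0.21), and 4 were lower in the interaction (median -0.62), against 8 lower and 1 higher with the replicate block and 6 lower with DESeq2. The shares over all genes were 13.8 and 18.3% for LPS in control cells, 6.6 and 4.06% with SF3a1 siRNA, and 1.94% lower in the interaction, or 6.54% higher and 5.18% lower with the block. In LPS, Ifnb1, the gene of interferon β, stood at 19.5 ± 12.6 CPM with control siRNA and 3.10 ± 2.24 CPM with SF3a1 siRNA (SD, n = 3, log2 -2.67, edgeR adjusted p = 0.0186). The interferon regulatory factors Irf7 (-2.44, edgeR adjusted p = 0.00114), Irf1 (-2.42, edgeR adjusted p = 0.000189) and Irf8 (-2.26, edgeR adjusted p = 0.000309) fell by similar amounts. The Irf7 change was -3.09 without SF3a1 siRNA with LPS replicate 1. Stat2, which carries the signal of the interferon receptor, rose with LPS by less under SF3a1 siRNA (2.50 against 3.90, interaction -1.40, edgeR adjusted p = 0.00650).

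Of 11 genes that control the decay of chemokine and cytokine mRNA, all were tested. LPS raised 2 and lowered 1 in control cells (median log2 change -0.09) and raised 2 and lowered 0 with SF3a1 siRNA (median 0.07). SF3a1 siRNA raised 3 and lowered 2 without LPS (median 0.50) and raised 2 and lowered 1 with it (median -0.04), and 1 was lower in the interaction (median 0.16). Over all genes LPS raised 13.8% and lowered 18.3% in control cells and 6.6 and 4.06% with SF3a1 siRNA, SF3a1 siRNA raised 13.7% and lowered 20.1% without LPS and 18.4 and 20.4% with it, and 1.94% were lower in the interaction. The counts over 11 genes are not read as setting them apart. With the replicate block the counts were 5 and 3 without LPS, 2 and 3 with it, and 1 and 2 for the interaction, against 20.7 and 26.3%, 24.6 and 26.3%, and 6.54 and 5.18% of all genes. Zc3h12a, an endonuclease that cleaves cytokine mRNA, rose with SF3a1 siRNA without LPS (0.67, edgeR adjusted p = 0.0204) and fell with it in LPS (-0.64, edgeR adjusted p = 0.0202). Zfp36l2, which binds AU-rich elements, rose in LPS (1.55, edgeR adjusted p = 0.0131), and without control siRNA with LPS replicate 1 the change was 2.45.

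The genes that lie beside the chemokines were read as well. Of 28 genes other than CC chemokines that start within 100 kb of a member, 12 were tested. With LPS in control cells 4 rose, namely Heatr9, E230016K23Rik, Wfdc17 and Cx3cl1, and 0 fell, and the counts were the same with SF3a1 siRNA. Cx3cl1 encodes fractalkine, a chemokine of another family. With SF3a1 siRNA 0 rose and 3 fell without LPS, and 1 rose and 4 fell with it, and the interaction was passed by 0 of the 12. The shares over all genes were 13.8% higher and 18.3% lower for LPS with control siRNA, 6.6 and 4.06% with SF3a1 siRNA, and, for SF3a1 siRNA, 13.7 and 20.1% without LPS and 18.4 and 20.4% with it. Heatr9, E230016K23Rik and Cx3cl1 reached the filter's minimum only in libraries with LPS, so that the counts for LPS are not independent of the filter and are not read against these shares. Several of the calls were fragile. With SF3a1 siRNA in LPS, the calls of Heatr6, Ciapin1 and Arl2bp were lost in 8, 4 and 2 of the 12 fits that left out a library and under 4, 2 and 1 other settings. For LPS with SF3a1 siRNA, the call of E230016K23Rik was lost in 6 of the 12 and that of Cx3cl1 in 1, without SF3a1 siRNA without LPS replicate 1 (edgeR adjusted p = 0.106). Wfdc17, near the Ccl3 and Ccl4 genes, fell with SF3a1 siRNA by 1.79 without LPS (edgeR adjusted p = 0.0300). In LPS its log2 change with SF3a1 against control siRNA was -2.91 (edgeR adjusted p = 0.000247). The first call was lost without SF3a1 siRNA without LPS replicate 1 (0.130), and without replicate 2 of that group its change was -2.57. Taf15 fell with SF3a1 siRNA by 1.27 without LPS and by 1.38 in LPS (edgeR adjusted p = 0.000159 and 7.63e-05).

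Counts of exon bins, the parts into which a gene's annotated exons divide, gave a second readout of the same genes in 11 libraries. Control siRNA with LPS replicate 3 was not analysed at the exon level. Of the 46 bins of the 9 genes, 34 were tested for a change relative to the rest of their gene with edgeR's diffSpliceDGE. None passed an adjusted p of 0.1 for LPS with control siRNA, LPS with SF3a1 siRNA, SF3a1 siRNA without LPS or SF3a1 siRNA with LPS, while 0.0801, 0.0254, 0.626 and 0.492% of all 153624 bins did. At an unadjusted p under 0.05 the counts were 0, 2, 0 and 0 of the 34 bins, where 1.97, 1.29, 3.39 and 3.99% of all bins passed, and limma gave 0 calls in each as well. The 2 were bins 2 and 4 of Ccl22, for LPS with SF3a1 siRNA.

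Ccl2 has an annotated transcript that keeps its second intron, of 325 bases, and that intron was a bin of its own. The end of the intron is shown since SF3a acts with the U2 snRNP at this end, with the 13 bases from -17 to -5 of the 3′ splice site in capitals (mm10, plus strand), 7 T and 6 C.
Ccl2 intron end, chr11:82036886-82036925: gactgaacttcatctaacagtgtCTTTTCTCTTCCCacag
The intron held 3.91, 0 and 0.510% of the Ccl2 bin counts in control cells without LPS and 0.520 and 0.724% with LPS. With SF3a1 siRNA it held 0.400, 0.520 and 1.44% without LPS and 0.322, 0.319 and 0.344% with LPS. The shares without LPS overlapped between the siRNAs, and with LPS the 3 libraries of SF3a1 siRNA lay below the 2 of control siRNA. The relative change of this bin with LPS was -0.60 on the log2 scale and did not pass (diffSpliceDGE unadjusted p = 0.328). A bin of 428 bases inside an intron of Ccl5 (chr11:83528728-83529155) held 1.16 and 0.951% of the Ccl5 bin counts in control cells with LPS and 0.363, 0.957 and 0.928% with SF3a1 siRNA, so the groups overlapped.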

How the data were processed

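Polyadenylated RNA of 12 cultures was sequenced on the Ion Proton. Per the labels, the authors mapped reads to mm10 with GSNAP and made the deposited counts per gene and per exon bin with HTSeq. These are whole reads without normalization, and whether strand was used in counting is not given in the sources used here. Reads assigned to no gene (17.75 to 27.2%) were left out of library sizes and tests.

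Genes were filtered with filterByExpr, scaled by TMM and fitted over the 12 libraries with 1 mean per group by edgeR 4.0.16 (quasi-likelihood test) in R 4.3.3, with Benjamini-Hochberg adjustment over all genes tested. The SE was taken as the size of the log2 change over the square root of the test's F statistic. The 95% intervals apply a t quantile to that SE, and both are approximate. For levels, CPM was divided by the length of all annotated exons of a gene (GENCODE vM21), rarely used parts included. Exon bins were tested with diffSpliceDGE in 11 libraries. Alternatives were DESeq2 size factors, total counts, no filter, a replicate block, only the groups compared, DESeq2 1.42.0, and each library left out. Limma 3.58.1 was an alternative for bins. The code was tested on simulated data. An exact permutation test of 3 against 3 cannot go below p = 0.1.

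The RNAi treatments and exposures were done in triplicate, but whether cultures with the same replicate number share a day is not stated. Libraries with the same number deviated together: the correlation of their deviations from group means was 0.143 to 0.600 over 18 pairs (median 0.356), against -0.523 to 0.345 over 36 other pairs. The fit without a block was kept.

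The 9 genes, the 6 gene lists and the tests were chosen with earlier results of these data known. The lists are other CC ligands, CC receptors, receptor signalling, the TLR4 to NF-κB route, the interferon route and mRNA decay. Named from a list were genes out of the 4 largest called changes at a mean of at least 1 CPM. Neighbours start within 100 kb. Some values outside the 9 genes under the alternatives were computed after the data were seen. Some single genes of the lists are not reported here.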

Additional observations from a re-analysis of the deposited data

Results flagged for a closer look

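The response to LPS differed between control and SF3a1 siRNA for 6 of the 9 CC chemokines by the interaction in the fit over all genes, and in each it was smaller with SF3a1 siRNA. As a log2 change with SF3a1 siRNA minus that with control siRNA, the values were -3.15 for Ccl2, -2.63 for Ccl3, -3.30 for Ccl4, -3.51 for Ccl5, -4.12 for Ccl7 and -3.07 for Ccl22. Over all genes, 1.94% were lower and 1.54% higher by this test. It was also passed by 10 of the genes reported from the 6 lists described beside them. Those lists held 3, 6, 17, 26, 15 and 11 tested genes, and nothing is read from the number passed. The response was smaller for Ccrl2 (-2.52), Rgs16 (-2.63), Nfkbiz (-3.29), Nfkbia (-1.21), Irak2 (-0.85), Irf7 (-2.30), Irf1 (-1.94), Stat2 (-1.40) and Zc3h12a (-1.31), and larger for Ticam2 (1.06). Of these 10, the calls of Irak2, Irf7, Irf1 and Ticam2 were lost in 10, 9, 4 and 8 of the 12 fits that left a library out. The Irf7 value was -2.96 without SF3a1 siRNA with LPS replicate 1. The Irak2 call was also lost with DESeq2 size factors (edgeR adjusted p = 0.104), and that of Ticam2 without the filter on low counts (0.120). Groups of 3 libraries are too small for a test of single outlying libraries, and none was made.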

How the results depend on the processing

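Member counts stayed within 1.5 times the reported count under every alternative, over all 4 comparisons and the interaction. Of 540 member values with a library left out, 506 kept direction and call, 28 lost the call, 1 gained it and 5 turned direction, and of 259 under other settings 253, 4, 2 and 0 did. The turned values were not called: Ccl6 with SF3a1 siRNA without LPS (-0.011 and -0.35, over all libraries left out -0.35 to 0.76), Ccl7 with it in LPS (0.10 and 0.060, range -0.23 to 0.10) and Ccl9 with it in LPS (0.13, range -0.26 to 0.13). Calls lost under other settings were Ccl5 and Ccl22 without LPS with total counts only (edgeR adjusted p = 0.139 and 0.125) and Ccl5 without LPS (0.141) and Ccl3 in LPS (0.176) with only the groups compared, a fit that gives no interaction. The Ccl12 interaction passed with DESeq2 (adjusted p = 0.0888).

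With the replicate block, the Ccl9 interaction passed and no other call of a member changed. All genes called rose from 1598 to 3115 for LPS with SF3a1 siRNA and from 520 to 1756 for the interaction with the block, and the interaction gave 930 without the filter and 921 with DESeq2. Leaving out a library gave 1050 to 2005 and 273 to 711. Total counts only moved the median of all genes to -0.20 for LPS with control siRNA, -0.12 with SF3a1 siRNA and 0.10 for the interaction. Over settings other than leaving out a library, chosen after the data were seen, the interferon genes that fell with SF3a1 siRNA numbered 5 to 8 without LPS and 9 to 10 with it. Ccl7 and Ccl12 had few counts at rest, and so did Ccl22, at 16, 3 and 8 with control siRNA and 15, 10 and 18 with SF3a1 siRNA. The sizes of the changes of these genes against the resting groups are thus loosely determined.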

Other observations

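The few reads of Ccl22 without LPS lay almost wholly at the end of the gene. All 27 of its bin counts without LPS with control siRNA, and 41 of 44 with SF3a1 siRNA, lay in its last bin (chr8:94749874-94751699, 1826 bases), which ends the coding sequence and holds the 3′ end of the transcript. With LPS that bin held 77.9% ± 0.0572 (SD, n = 2) of the counts with control siRNA and 79.1% ± 3.87 (SD, n = 3) with SF3a1 siRNA. This was noticed after the values were seen. The bin itself did not pass the exon test for LPS with SF3a1 siRNA (log2 relative change -0.16, edgeR adjusted p = 1), and at 3 to 19 counts a library without LPS the resting shares are loosely determined.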
